A study of Danio rerio with 21 samples.

Results

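The 6 libraries described here are the control zebrafish at both ends of the interval in which the other fish of the study were heated. They were chosen by their labels, as every library of the control groups C25D and C35D, and they make up 6 of 21 libraries. C25D is 3 biological replicates of wild-type fish of the AB strain taken at 25 dpf (days post-fertilization), and C35D is 3 replicates taken at 35 dpf. Both groups were kept at 28 °C throughout and received no treatment. The study's methods describe the RNA as taken from whole bodies, with several fish behind each sample. The methods also give an approximate mass of tissue ground for extraction, and do not state which part of the bodies it covered. The study used these groups as the start of the heat exposure and as the unheated fish at its end. Comparing C35D with C25D describes the transcripts that differed between unheated samples taken 10 days apart in age. Since the groups differ in age and also in the day on which they were taken, age and sampling day cannot be told apart.

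Zebrafish pass from larva to juvenile in these weeks. As background, larval fin folds and swimming muscle give way to adult fins and adult muscle fibres, scales form in the skin, red blood cells exchange larval haemoglobins for adult ones, adaptive immunity matures, and every fish first builds an ovary-like gonad that either goes on as an ovary or turns into a testis. Thyroid hormone drives much of this metamorphosis. In whole-body RNA, fewer cells of a type and less RNA per cell cannot be told apart.

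The authors' estimated counts summed to between 12136789 and 15151287 per library, so that 3 counts amounted to between 0.180 and 0.260 CPM (counts scaled to the TMM-adjusted size of each library). The C25D libraries resembled each other closely, with a Pearson's r across genes, on log2 CPM, of 0.977 to 0.979. Within C35D r was between 0.876 and 0.935, and 75.4% of tested genes varied more within C35D than within C25D. Values per library are given in the order of replicates 1, 2 and 3. Of 62 markers of tissues and cell types looked up, 52 had more than 3 counts in all 6 libraries. The rod opsin gene rho was among these 52 with only 4 counts in C35D-1.

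Library C35D-1 stood apart in the eye. The rod opsin rho was at 1125, 1478 and 998 CPM at 25 dpf against 0.347, 832 and 379 CPM at 35 dpf, and the cone transducin gnat2 at 198, 263 and 194 CPM at 25 dpf against 0.260, 89.0 and 47.3 CPM at 35 dpf. Both genes were thus at or near 0 in C35D-1 and plentiful in the other 5 libraries. The study describes its samples as whole bodies without stating how much of each fish the ground tissue covered. Why C35D-1 held so little eye RNA was not tested. Over the eye lens list, the mean log2 CPM was -3.51 in C35D-1, 4.58 and 3.46 in the other C35D libraries and 4.44 to 5.26 in C25D. Outside these 6 libraries, the lens list was as low in C60D (-3.71 to -2.61), T45D-1 (-3.02), T45D-3 (-2.78) and T60D-2 (-3.41). Nervous system transcripts were low in C35D-1 too, with a mean log2 CPM of -0.29 for the synapse list against 2.70 and 1.99 in C35D-2 and C35D-3. So were some other markers, with 732 counts of the cartilage gene col2a1a against 5323 and 3288, and 40 of rag1 against 629 and 512. Others were not, such as krt4, with 26217 counts against 26370 and 24414. Library C35D-2 stood apart in the other direction, with the most oocyte transcripts of the 6 libraries (described with the gonad). Medians of gene lists that moved by more than 1.5 times without a library are given with that value.

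**Figure D1:**
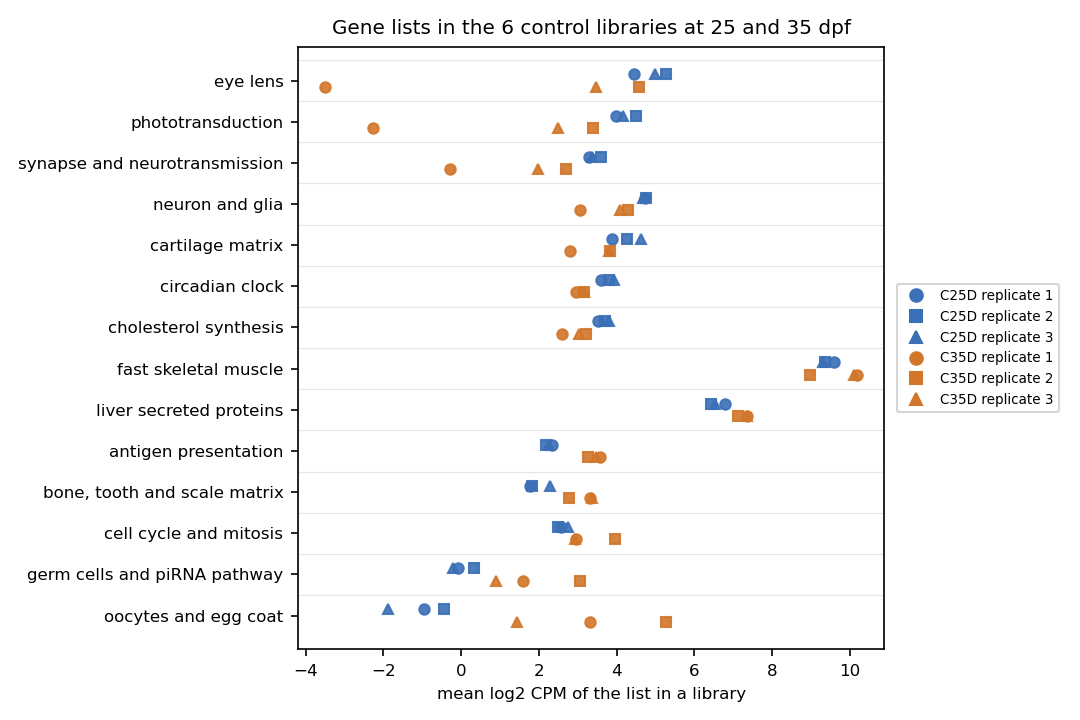
Mean log2 CPM (horizontal axis) of the genes of 14 hand-written lists in each of the 6 libraries, with C25D in blue, C35D in orange and the replicate number as the marker shape. The eye lens list lies at -3.51 in C35D-1 and between 3.46 and 5.26 in the other libraries, and the oocyte list lies highest in C35D-2, at 5.27.

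Comparing C35D with C25D, 48 of 20459 tested genes (0.235%) passed an adjusted p of 0.05 in edgeR's quasi-likelihood test, the test behind every adjusted p below, with Benjamini-Hochberg adjustment over all genes tested. Of these, 37 (0.181%) were higher in C35D and 11 (0.0538%) were lower, and a gene is said to have risen or fallen only where it is among them. In all 48 the groups did not overlap and the difference was at least 1 on the log2 scale, with a median size of 2.08 for the higher genes and 2.51 for the lower genes. A fit with the replicate block gave 230 higher and 44 lower genes, and 47 of the 48 were among them. The exception was si:dkey-11o18.5, which missed the threshold in that fit, with an adjusted p of 0.0592. The labels give the replicate numbers no stated meaning, so a value from the block fit does not turn a missed gene into a call. Below, the adjusted p of the block fit is printed beside a gene that missed the threshold only where it was 0.05 or less. For the other missed genes named it was above 0.05, as for hbae5 (0.0616), fasn (0.0592) and fabp10a (0.105). With DESeq2's size factors in edgeR, which split the calls more evenly, 12 were higher and 8 lower, and 20 of the 48 were still called. With library size only, 16 of the 48 were. Among the calls lost with DESeq2's size factors were hbbe2, bglap and b2m, each at an adjusted p of 0.0539. Such values are not printed beside the called genes below. The calls were few beside the genes that separated the groups, since 17.2% of tested genes had all C35D libraries above all C25D libraries and 19.9% the reverse, and at an unadjusted p of 0.05 or less 13.6% were higher and 12.7% lower. A lack of overlap stated for a gene below is to be read against these shares, since many genes were named for a small p or for that trait. Leaving out C35D-1 gave 461 higher and 657 lower of 20845 tested genes. Leaving out C35D-2 gave 1547 and 1683 of 20675, with all 48 among the calls both times. Calls within a list without one of these libraries are to be read against those numbers. Leaving out C35D-3 gave 5 and 0, and leaving out any C25D library gave no call, although 1645 to 1987 genes were then higher and 1280 to 1890 lower at an unadjusted p of 0.05 or less. All 48 genes kept their direction without each of the 6 libraries, which their lack of overlap all but fixed in advance. Medians of gene lists below can be read against 0.05, the median log2 fold change of all tested genes. Counts of list members above or below 0 can be read against the 54.2% of all tested genes that were above 0.

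**Figure D2:**
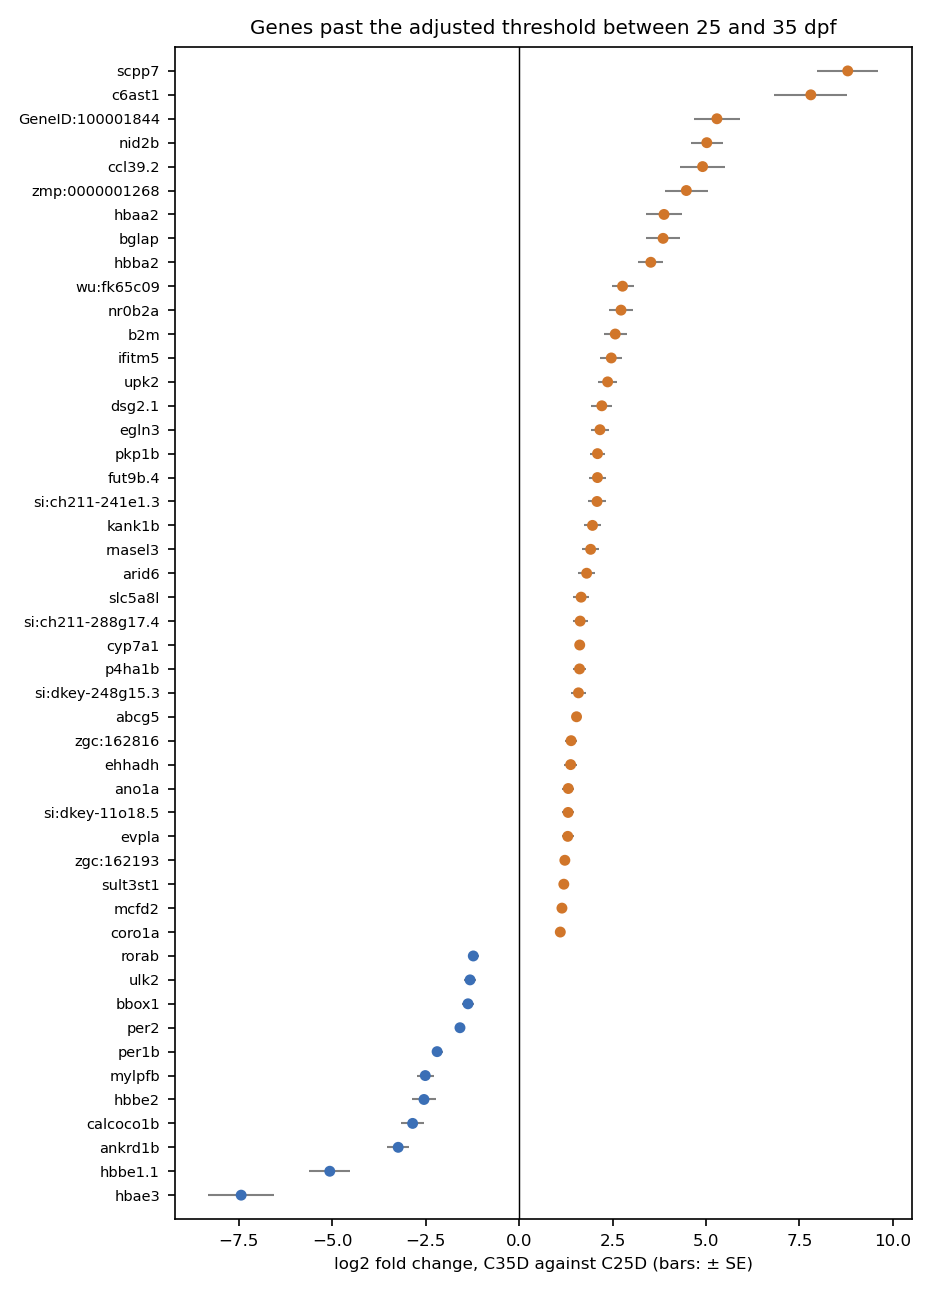
Log2 fold change of C35D against C25D (horizontal axis, with bars of ± SE) for the 48 genes past the adjusted threshold, with genes higher in C35D in orange and genes lower in blue. The higher genes reach 8.79, for scpp7, and the lower genes reach -7.44, for hbae3.

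Larval globin transcripts gave way to adult ones. Haemoglobin joins alpha-type and beta-type globin chains, and zebrafish carry separate sets of both for the embryo and larva and for the adult. Of the 9 embryonic and larval globin genes, all had log2 fold changes below 0, with a median of -4.12, and 3 fell past the threshold. The beta-type hbbe1.1 was at 185, 516 and 399.6 CPM at 25 dpf against 7.99, 17.3 and 7.37 CPM at 35 dpf. Its groups were far apart, at a log2 fold change of -5.07 ± 0.55 and an adjusted p of 0.0468. The alpha-type hbae3 was at 34.2, 174 and 118 CPM at 25 dpf against 0.174, 1.2 and 0.369 CPM at 35 dpf, so that the gene was close to the limit of 3 counts by 35 dpf. Its log2 fold change was -7.44 ± 0.89, with an adjusted p of 0.0468. The third, the larval beta-type hbbe2, stayed better represented, at 721, 620.2 and 489 CPM at 25 dpf against 68.9, 145 and 99.4 CPM at 35 dpf, and its log2 fold change was -2.55 ± 0.32, with an adjusted p of 0.0471.

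The other 6 larval globins lay on the same side without reaching the threshold. Of these, hbae1.2 had the highest level at 25 dpf, at 530.3, 657 and 577 CPM at 25 dpf against 8.16, 61.1 and 32 CPM at 35 dpf, with a log2 fold change of -4.12 ± 0.69 and an adjusted p of 0.0618 (0.0457 with the replicate block). For hbae1.3 the log2 fold change was -3.97 ± 0.56, with an adjusted p of 0.0569 (0.0307 with the replicate block). For the alpha-type hbae5 it was -2.27 ± 0.32, with an adjusted p of 0.0569. The beta-type hbbe1.2 was at 18, 31.5 and 34.7 CPM at 25 dpf against 0, 1.26 and 1.03 CPM at 35 dpf, with an adjusted p of 0.0569 (0.0273 with the replicate block), and hbbe1.3 at 50.4, 78.5 and 75.8 CPM at 25 dpf against 0, 1.99 and 3.1 CPM at 35 dpf, with an adjusted p of 0.0618 (0.0457 with the replicate block). Only hbae1.1 was low at both ages, at most 10.7 CPM. With the replicate block, 7 of the 9 genes passed the threshold, and without C35D-1 8 of 9 did.

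The adult globins moved the other way. The beta-type hbba2 was at 3.01, 1.69 and 2.83 CPM at 25 dpf against 39.0, 20.5 and 27.6 CPM at 35 dpf, a log2 fold change of 3.52 ± 0.33 with an adjusted p of 0.0333. The alpha-type hbaa2 was at 2.36, 2.3 and 2.64 CPM at 25 dpf against 63.4, 22.2 and 22.3 CPM at 35 dpf, a log2 fold change of 3.88 ± 0.49 with an adjusted p of 0.0471. Both genes rose from a few CPM in every C25D library. The abundant adult genes were already on at 25 dpf. For hbba1 the levels were 1700.1, 1026 and 1581 CPM at 25 dpf against 7614, 3517 and 2999 CPM at 35 dpf, with an adjusted p of 0.0912, and for hbaa1 they were 1457, 727 and 1468 CPM at 25 dpf against 4354, 2948 and 2072 CPM at 35 dpf, with an adjusted p of 0.114, so that neither passed. Other red cell genes differed less, since the anion exchanger slc4a1a was at 80.5, 62.7 and 85.9 CPM at 25 dpf against 264, 109 and 74.5 CPM at 35 dpf and the groups overlapped. The globin genes within each type are near copies of one another, so the split of reads among them is an estimate.

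**Figure D3:**
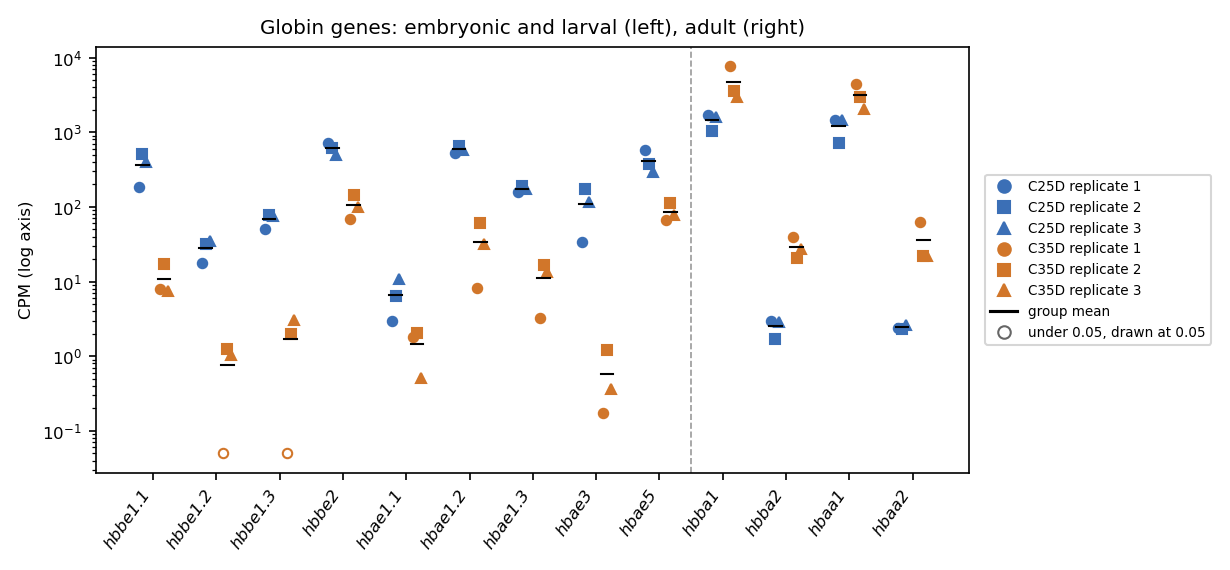
CPM on a log axis for 9 embryonic and larval globin genes (left of the dashed line) and 4 adult globin genes (right) in each library of C25D (blue) and C35D (orange), with group means as black lines and open symbols for values under 0.05. All 9 larval genes have higher means in C25D and all 4 adult genes have higher means in C35D.

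Expressed per gene length, as the authors' expression values taken as FPKM, embryonic and larval globins made up 45.2%, 63.3% and 44.6% of the summed FPKM of the 13 globins in C25D. In C35D they made up 1.51%, 6.02% and 5.09%. The shares went on down in the older control fish, to between 0.175% and 0.841% at 45 dpf and between 0.0477% and 0.0832% at 60 dpf.

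In swimming muscle, a fast myosin light chain fell and the values of other contractile isoforms lay apart. Abundant muscle genes such as the alpha actin actc1b, at 30374, 23608 and 21821 CPM at 25 dpf against 41635, 15622 and 37552 CPM at 35 dpf, and the fast myosin light chain mylpfa, at 27941, 24921 and 18107 CPM at 25 dpf against 43646, 14592 and 36143 CPM at 35 dpf, overlapped between the ages. The paralog mylpfb, also a fast myosin light chain, fell from every C25D library to every C35D library, at 193, 248 and 241 CPM at 25 dpf against 50.1, 31.1 and 38.3 CPM at 35 dpf. Its log2 fold change was -2.51 ± 0.23, with an adjusted p of 0.0333. The mechanically responsive muscle gene ankrd1b fell as well, at 18.6, 33.6 and 35.5 CPM at 25 dpf against 2.52, 3.49 and 3.24 CPM at 35 dpf, a log2 fold change of -3.24 ± 0.30 with an adjusted p of 0.0333.

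Among the myosin heavy chains, the motors of the thick filament, no gene passed the threshold, but the levels of myhz1.1 to myhz2 were lower at 35 dpf and those of myha and myhc4 higher. For myhz1.1 the levels were 17413, 14840.5 and 13780.4 CPM at 25 dpf against 6367, 4835 and 6761 CPM at 35 dpf, a log2 fold change of -1.36 ± 0.30 with an adjusted p of 0.0764. For myhz1.3 the log2 fold change was -1.69 ± 0.50, and for myhz1.2 and myhz2 it was -0.81 for each. The gene myhc4 was at 690.1, 439 and 254 CPM at 25 dpf against 7432, 1707 and 10399 CPM at 35 dpf, with an adjusted p of 0.0678, and myha was at 2223, 956 and 969 CPM at 25 dpf against 19970.4, 4371 and 14856 CPM at 35 dpf, with an adjusted p of 0.0708. Within C35D both were lowest in C35D-2. Taken by FPKM, myha, myhb and myhc4 held 4.85%, 3.07% and 2.79% of the summed FPKM of 7 fast myosin heavy chains in C25D. The shares were 55.2%, 25.9% and 46.4% in C35D, and they reached 84.8% to 95.8% at 45 dpf and 98.9% to 99.1% at 60 dpf. These genes are close copies, so their individual counts are less certain than their sum.

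**Figure D4:**
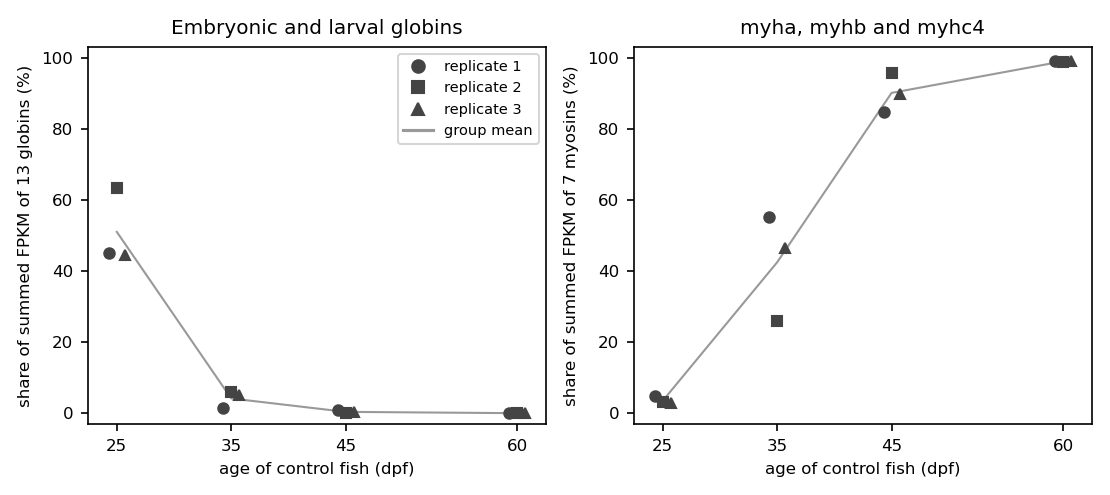
Share of the summed FPKM of 13 globin genes held by the embryonic and larval genes (left, %) and share of the summed FPKM of 7 fast myosin heavy chains held by myha, myhb and myhc4 (right, %) against the age of control fish in dpf, with 1 point per library and a line through the group means. The globin share lies at 44.6% to 63.3% at 25 dpf and at 1.51% to 6.02% at 35 dpf, and the myosin share at 2.79% to 4.85% and at 25.9% to 55.2%.

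Other muscle genes differed in level without passing. Of these, atp2a1 and smyhc1 were near their 25 dpf levels again in control fish of 60 dpf (values with the older fish below). The troponin I tnni2a.3 had a log2 fold change of 2.36 ± 0.57 and its paralog tnni2a.4 one of -0.95 ± 0.28. The calcium buffer pvalb3 was at 79, 49.1 and 46.6 CPM at 25 dpf against 329, 142 and 396 CPM at 35 dpf, with an adjusted p of 0.0677. The calcium pump atp2a1 was at 1728, 1597 and 2006 CPM at 25 dpf against 652, 579 and 762 CPM at 35 dpf, with an adjusted p of 0.0587. The slow myosin smyhc1 was at 736, 734 and 768 CPM at 25 dpf against 321, 312 and 476 CPM at 35 dpf, with an adjusted p of 0.0724. Over the fast muscle list of 53 genes, 38 had log2 fold changes above 0 and 1 gene was called. The median was 0.40 with all libraries, 0.12 without C35D-1 and 0.71 without C35D-2. Without C35D-2, in which the most abundant fast muscle genes were lower than in the other C35D libraries, 22 were called higher and 3 lower.

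Of the genes of mineralizing tissue, 3 rose. The largest difference of all called genes was that of scpp7, a member of the secretory calcium-binding phosphoprotein family whose products build the matrix of teeth, bone and scales. It was at 3.82, 1.15 and 5.67 CPM at 25 dpf against 1868, 719 and 2163 CPM at 35 dpf, which took it from a handful of CPM to one of the well-expressed genes of the fish. This was a log2 fold change of 8.79 ± 0.82, with an adjusted p of 0.0333. The osteoblast membrane protein gene ifitm5 was at 3.98, 5.76 and 6.31 CPM at 25 dpf against 35.6, 19.6 and 33.9 CPM at 35 dpf, a log2 fold change of 2.46 ± 0.30 with an adjusted p of 0.0468. The gene for osteocalcin, bglap, a late product of bone-forming cells, was at 0.894, 0.922 and 1.93 CPM at 25 dpf against 15.3, 11.9 and 28.1 CPM at 35 dpf, a log2 fold change of 3.85 ± 0.46 with an adjusted p of 0.0468.

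Several partners had similar values and missed the threshold. Enamelin, enam, was at 9.10, 17.4 and 23.6 CPM at 25 dpf against 427, 148 and 531 CPM at 35 dpf, with an adjusted p of 0.0518 (0.0392 with the replicate block). The osteoblast transcription factor sp7 was at 6.10, 6.14 and 9.86 CPM at 25 dpf against 25.9, 15.5 and 31.3 CPM at 35 dpf, with an adjusted p of 0.0678 (0.0370 with the replicate block). Type X collagen, made in zebrafish by bone-forming cells, was at 55, 14.6 and 28.5 CPM at 25 dpf against 701, 232 and 1878 CPM at 35 dpf for col10a1b, with an adjusted p of 0.0678 (0.0420 with the replicate block). Ameloblastin, ambn, was at or under 1 count in each C25D library and at 4.60, 1.93 and 28.8 CPM in C35D, with an adjusted p of 0.0684 (0.0265 with the replicate block). The scpp5 level of C35D rested on C35D-1, at 19.5 CPM against 1.44 and 1.55 CPM. In all, 3 of 42 tested genes of the bone, tooth and scale list were called, all higher, and the list's median was 0.81. With the replicate block 7 were called, without C35D-1 10 and without C35D-2 19, all higher.

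**Figure D5:**
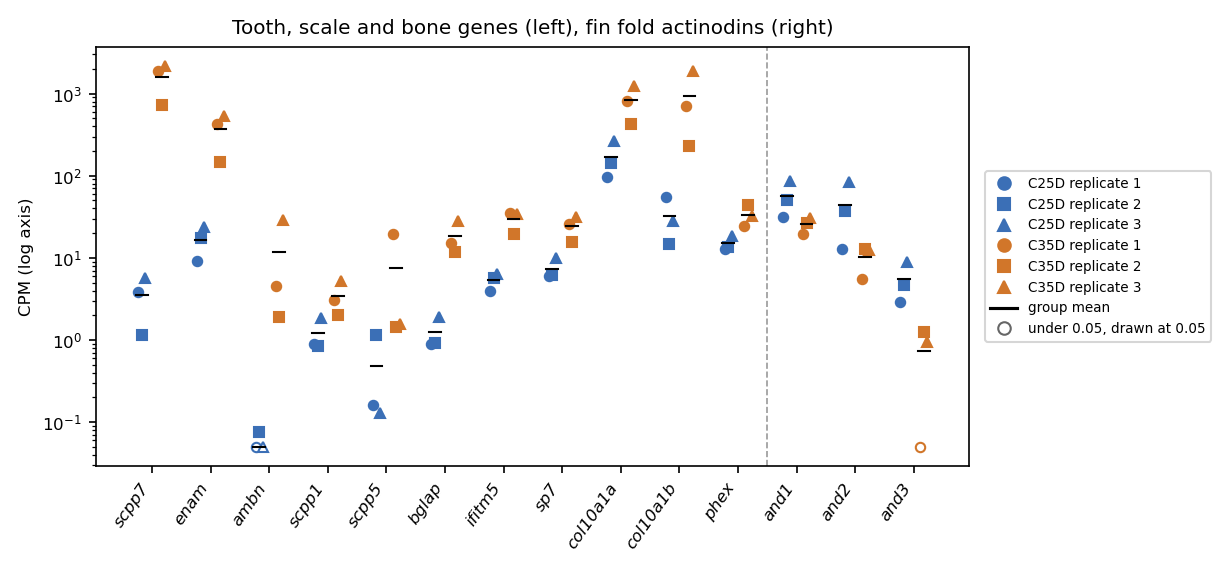
CPM on a log axis for 11 genes of teeth, scales and bone (left of the dashed line) and 3 actinodin genes of the fin fold (right) in each library of C25D (blue) and C35D (orange), with group means as black lines and open symbols for values under 0.05. The scpp7 libraries lie between 1.15 and 5.67 CPM in C25D and between 719 and 2163 CPM in C35D, while the actinodin means are lower in C35D.

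The actinodins, which build the unmineralized fibres of the larval fin fold, were lower in level. Values were 31.1, 50.9 and 87.2 CPM at 25 dpf against 19.6, 26.8 and 30.3 CPM at 35 dpf for and1, 12.8, 37 and 83.3 CPM at 25 dpf against 5.47, 12.9 and 12.4 CPM at 35 dpf for and2 and 2.93, 4.68 and 8.89 CPM at 25 dpf against 0, 1.26 and 0.959 CPM at 35 dpf for and3. The adjusted p values were 0.134, 0.127 and 0.118, so that none passed. In C25D, and2 was spread over 12.8 to 83.3 CPM. Cartilage matrix genes were also lower on balance, with 18 of 24 below 0, a median of -0.76, or -0.55 without C35D-1, and no call. Of these, the upper zone cartilage gene ucmab had a log2 fold change of -1.49 ± 0.35, with an adjusted p of 0.0834.

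In connective tissue an enzyme of collagen modification rose. The prolyl hydroxylase subunit p4ha1b, which hydroxylates procollagen, was at 9.02, 6.37 and 7.09 CPM at 25 dpf against 24.1, 23.2 and 21.5 CPM at 35 dpf, a log2 fold change of 1.62 ± 0.18 with an adjusted p of 0.0468. It was the 1 call among 59 tested genes of the collagen and connective tissue list, of which 27 lay higher and 7 lower by unadjusted p. The list's median was 0.53, and 0.30 without C35D-3 and 0.35 without C25D-2. The basement membrane protein nidogen 2b, nid2b, lies outside that list and rose from near the limit of detection, at 0.163, 0.230 and 0.129 CPM at 25 dpf against 6.16, 4.03 and 7.45 CPM at 35 dpf, a log2 fold change of 5.02 ± 0.43 with an adjusted p of 0.0331. The fibrillar collagen col5a2b was at 19, 24.3 and 28.8 CPM at 25 dpf against 135, 56.7 and 153 CPM at 35 dpf and did not pass, with an adjusted p of 0.0646. The collagen chaperone serpinh1a had a log2 fold change of 1.07 ± 0.19, with an adjusted p of 0.0664, and the small proteoglycan bgna one of 2.83 ± 0.49, with an adjusted p of 0.0649.

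Of the genes for junctions between skin cells, pkp1b, evpla and dsg2.1 rose. Plakophilin 1b, pkp1b, a plaque protein of desmosomes, was at 4.47, 5.84 and 5.67 CPM at 25 dpf against 26.7, 22.7 and 19 CPM at 35 dpf. This was a log2 fold change of 2.1 ± 0.20, with an adjusted p of 0.0333. Envoplakin, evpla, which links desmosomes to keratin filaments, was at 30.6, 35.1 and 36.7 CPM at 25 dpf against 72.0, 90.1 and 90.3 CPM at 35 dpf, a log2 fold change of 1.3 ± 0.16 with an adjusted p of 0.0468. The desmosomal cadherin dsg2.1 rose too, at 12.1, 11.7 and 22.5 CPM at 25 dpf against 67.4, 67.9 and 79.3 CPM at 35 dpf, with an adjusted p of 0.0471. Periplakin, ppl, and plakophilin 3a, pkp3a, had log2 fold changes of 1.08 ± 0.16 and 0.96 ± 0.14, with adjusted p values of 0.0587 and 0.0609. Keratin 5, krt5, a main filament of the epidermis, was at 4944, 3737 and 4189 CPM at 25 dpf against 4577, 4562 and 6135 CPM at 35 dpf and did not separate the ages. The epidermis list had 2 of 50 genes called, both higher, with a median of 0.42, and 23 higher against 3 lower at an unadjusted p of 0.05 or less. The uroplakin upk2, a membrane plaque protein of mammalian urothelium, also rose, at 2.11, 1.31 and 1.68 CPM at 25 dpf against 9.03, 8.48 and 8.85 CPM at 35 dpf, with an adjusted p of 0.0468.

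In bile and sterol handling, cyp7a1, abcg5 and nr0b2a rose. Cholesterol 7-alpha-hydroxylase, cyp7a1, the rate-limiting enzyme of bile acid synthesis, was at 12.4, 13.1 and 11.7 CPM at 25 dpf against 40.9, 35.3 and 38.56 CPM at 35 dpf. Its log2 fold change was 1.62 ± 0.13, with an adjusted p of 0.0331. The sterol exporter abcg5, which secretes cholesterol into bile, was at 13.4, 14.7 and 12.3 CPM at 25 dpf against 38.8, 38.5 and 39.96 CPM at 35 dpf, a log2 fold change of 1.53 ± 0.13 with an adjusted p of 0.0331. Its partner in the transporter, abcg8, was at 17.9, 13.3 and 14.2 CPM at 25 dpf against 40.5, 28.9 and 37 CPM at 35 dpf and missed the threshold, with an adjusted p of 0.0618 (0.0330 with the replicate block). The nuclear receptor nr0b2a, which in mammals represses cyp7a1 when bile acids are plentiful, was at 12.1, 6.68 and 9.60 CPM at 25 dpf against 80.7, 42.2 and 65 CPM at 35 dpf, a log2 fold change of 2.73 ± 0.32 with an adjusted p of 0.0468. A lack of overlap between the ages was part of the rule by which cyp7a1, abcg5 and nr0b2a were named, and the groups of abcg8 did not overlap either. The ileal bile acid transporter slc10a2 was lower in level, at 40.7, 36.6 and 30.3 CPM at 25 dpf against 19.8, 11.9 and 21.2 CPM at 35 dpf, and did not pass, with an adjusted p of 0.0849. Over the bile acid and drug handling list 3 of 25 genes were called, all higher, and 9 of the 25 had log2 fold changes below 0. The list's median was 0.25, but 0.0027 without C35D-1, 0.13 without C25D-1 and 0.40 without C35D-2.

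Cholesterol synthesis lay on the other side. Of 29 tested enzymes and regulators none was called, 13 were lower and 2 higher at an unadjusted p of 0.05 or less, and the median was -0.58. The sterol demethylation enzymes msmo1 and cyp51 were at 94, 166 and 147 CPM at 25 dpf against 21.3, 36.3 and 32.3 CPM at 35 dpf and at 98.8, 153 and 123 CPM at 25 dpf against 11.5, 34.7 and 17.6 CPM at 35 dpf. For msmo1 the log2 fold change was -2.17 ± 0.29, with an adjusted p of 0.0518 (0.00891 with the replicate block), and for cyp51 it was -2.55 ± 0.42, with an adjusted p of 0.0618 (0.0172 with the replicate block). Lanosterol synthase, lss, was -1.86 ± 0.33, with an adjusted p of 0.0666 (0.0494 with the replicate block). The 3 genes did not overlap between the ages. With the replicate block 3 genes of the list were called lower, and without C35D-1 5 were.

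Of the fatty acid synthesis and storage list 24 of 34 tested genes were above 0, with 9 higher and 3 lower by unadjusted p, a median of 0.30 and no call. Fatty acid synthase, fasn, was at 69.7, 55.1 and 47.1 CPM at 25 dpf against 172, 156 and 223 CPM at 35 dpf and just missed the threshold, with an adjusted p of 0.0518. The lipid droplet coat plin2 was at 49.9, 34.7 and 62.6 CPM at 25 dpf against 13.2, 26.3 and 10.7 CPM at 35 dpf, with an adjusted p of 0.0888. The peroxisomal beta-oxidation enzyme ehhadh rose, at 26.4, 21.9 and 23.6 CPM at 25 dpf against 65.4, 51.5 and 70.195 CPM at 35 dpf, with an adjusted p of 0.0468. The carnitine synthesis enzyme bbox1 fell, at 99.1, 91.5 and 79.2 CPM at 25 dpf against 36.2, 36.9 and 31.3 CPM at 35 dpf, a log2 fold change of -1.37 ± 0.15 with an adjusted p of 0.0468. The list of gluconeogenesis, glycogen and fasting genes went both ways, with 21 of 40 above 0, 9 higher and 10 lower by unadjusted p, and no call. Of its members, the gluconeogenic enzyme pck1 was at 385, 246 and 348 CPM at 25 dpf against 91.7, 133 and 54.9 CPM at 35 dpf, with an adjusted p of 0.0678, and the lipase inhibitor angptl4 had a log2 fold change of -1.44 ± 0.28, with an adjusted p of 0.0678 (0.0420 with the replicate block). A pair of genes linked to autophagy were among the called lower genes. The kinase ulk2 fell by 1.31 on the log2 scale, at 32.9, 30.0 and 32.1 CPM at 25 dpf against 10.7, 14.1 and 13.3 CPM at 35 dpf, with an adjusted p of 0.0468, and calcoco1b, whose mammalian relative is an autophagy receptor, was at 28.5, 35.3 and 24.1 CPM at 25 dpf against 5.47, 4.15 and 2.58 CPM at 35 dpf, with an adjusted p of 0.0468.

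Secreted liver proteins were higher in level as a list. Of 74 tested genes, 50 lay higher and 1 lower at an unadjusted p of 0.05 or less, with a median of 0.72, and none was called. The plasma protein ahsg2 was at 752, 716 and 741 CPM at 25 dpf against 1807, 1869 and 2178 CPM at 35 dpf, with an adjusted p of 0.0518, and complement c3a.2 at 122, 121 and 117 CPM at 25 dpf against 257, 294 and 416 CPM at 35 dpf, with an adjusted p of 0.0618. The liver fatty acid binding protein fabp10a was at 2055, 1978 and 1864 CPM at 25 dpf against 5507, 3313 and 3917 CPM at 35 dpf, with an adjusted p of 0.0842. The groups of all 3 genes did not overlap. With the replicate block 4 genes of the list were called, without C35D-1 16 and without C35D-2 35, all higher.

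The clock repressors per1b and per2 fell. The vertebrate clock turns on a loop in which Per and Cry proteins repress their own activators, and in zebrafish some of these genes also respond directly to light. The repressor per1b had the smallest p of all genes, at 52.2, 60.8 and 55.1 CPM at 25 dpf against 13.5, 11.1 and 12.1 CPM at 35 dpf, a log2 fold change of -2.2 ± 0.14 with an adjusted p of 0.0285. The light-responsive repressor per2 was at 110.3, 106 and 107 CPM at 25 dpf against 36.8, 34.2 and 36.9 CPM at 35 dpf, a log2 fold change of -1.58 ± 0.13 with an adjusted p of 0.0331. In both genes the replicates of an age lay close together and the ages far apart. The nuclear receptor rorab, of a family that activates the clock's bmal genes, fell as well, at 69.2, 75.9 and 67.9 CPM at 25 dpf against 26.4, 30.5 and 34.1 CPM at 35 dpf, with an adjusted p of 0.0468.

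Further clock genes had lower values and missed the threshold. The repressor cry1a had a log2 fold change of -1.16 ± 0.15, with an adjusted p of 0.0518, and cry1b one of -1.59 ± 0.25, with an adjusted p of 0.0618 (0.0494 with the replicate block). For per3 it was -1.28 ± 0.21, with an adjusted p of 0.0618 (0.0375 with the replicate block). The repressor nr1d2b and the output factor hlfb were at -1.06 and -1.19, with adjusted p values of 0.0569 and 0.0587. The activator bmal1a, which in a running clock peaks apart from the Per genes, was at 13.9, 15.1 and 13.4 CPM at 25 dpf against 10.4, 15.4 and 9.0 CPM at 35 dpf, and the groups overlapped. The repressor nfil3-2 was higher in level, at 12.8, 13.6 and 17.5 CPM at 25 dpf against 30.4, 21.2 and 24.7 CPM at 35 dpf, with an adjusted p of 0.0895. In all 37 of 42 clock genes were below 0, the median was -0.66, and 2 were called lower. With the replicate block 4 were called lower, and without C35D-1 11. The hour at which the fish were taken is not given in the sources used here, so age and hour cannot be told apart.

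In the immune system, the light chain of MHC class I rose. This chain, b2m, which class I molecules need to reach the cell surface, was at 21.8, 18.51 and 22.9 CPM at 25 dpf against 176, 77.7 and 121 CPM at 35 dpf. Its log2 fold change was 2.57 ± 0.31, with an adjusted p of 0.0468. The class II chaperone genes cd74b and cd74a did not overlap between ages and missed the threshold, at 20.9, 16.2 and 25.3 CPM at 25 dpf against 116, 63.7 and 87.3 CPM at 35 dpf for cd74b, with an adjusted p of 0.0518 (0.0187 with the replicate block), and at a log2 fold change of 1.96 ± 0.29 for cd74a, with an adjusted p of 0.0618 (0.0220 with the replicate block). The immunoproteasome subunit psmb8a, which trims peptides for presentation, was at 3.58, 2.76 and 2.51 CPM at 25 dpf against 7.81, 10.5 and 7.30 CPM at 35 dpf, with an adjusted p of 0.0618. Of 25 tested antigen presentation genes, 19 lay higher and 1 lower at an unadjusted p of 0.05 or less, 1 was called, and the median was 1.1. With the replicate block 3 were called, without C35D-1 8 and without C35D-2 14, all higher.

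Among genes of leucocytes, the actin regulator coro1a rose, at 14.9, 13.4 and 15.8 CPM at 25 dpf against 33.8, 31.2 and 29.6 CPM at 35 dpf, with an adjusted p of 0.0468. The pan-leucocyte phosphatase ptprc was at 5.93, 7.22 and 9.86 CPM at 25 dpf against 14.1, 17.9 and 19.3 CPM at 35 dpf, with an adjusted p of 0.0708. Of secreted proteins, the chemokine ccl39.2 rose from under 5 CPM, at 3.66, 3.23 and 4.32 CPM at 25 dpf against 214, 51.7 and 72.3 CPM at 35 dpf, a log2 fold change of 4.91 ± 0.60 with an adjusted p of 0.0470. The secreted ribonuclease rnasel3 rose too, at 34.1, 21.6 and 28.5 CPM at 25 dpf against 111, 84.1 and 121 CPM at 35 dpf, with an adjusted p of 0.0468. These 2 genes did not follow ptprc in the control fish of 60 dpf (C60D, CPM scaled over all 21 libraries). Both were at 0 to 0.0975 CPM there, where ptprc was at 11.4 to 20.3 CPM and the liver gene fabp10a at 0.317 to 1.47 CPM. Liver was not the only organ with few transcripts there. The mean log2 CPM of the intestine list was -0.80 to 1.46, against 6.54 to 6.86 in C35D. Which tissue made the RNA of ccl39.2 and rnasel3 was not tested. The neutrophil genes did not move together. Myeloperoxidase, mpx, was at 8.13, 40.8 and 58.8 CPM at 25 dpf against 3.73, 11.8 and 11.7 CPM at 35 dpf, and lysozyme, lyz, at 5.93, 5.45 and 7.80 CPM at 25 dpf against 29.3, 20.6 and 7.37 CPM at 35 dpf. Neither passed, and the groups overlapped for both.

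Ovarian transcripts were counted in all C35D libraries, at levels that differed widely among them. Oocytes build their egg coat from zona pellucida proteins and store maternal factors such as zar1 and the Balbiani body organizer buc. The coat gene zp2.1 was at 0.406, 0.230 and 0.258 CPM at 25 dpf against 209, 364 and 20.6 CPM at 35 dpf, so that it was near the limit of detection in each C25D library. Its log2 fold change was 9.35 ± 1.26, and it missed the threshold, with an adjusted p of 0.0518 (0.0155 with the replicate block). The gene zp3.2 was at 0.406, 0.384 and 0.193 CPM at 25 dpf against 89.4, 264 and 10.25 CPM at 35 dpf, with an adjusted p of 0.0618 (0.0116 with the replicate block). Maternal zar1 was at 0.569, 1.54 and 0.515 CPM at 25 dpf against 27.5, 143 and 5.90 CPM at 35 dpf, with an adjusted p of 0.0724 (0.0259 with the replicate block), and buc at 0.650, 2.15 and 0.322 CPM at 25 dpf against 28, 119.3 and 5.53 CPM at 35 dpf, with an adjusted p of 0.0804 (0.00628 with the replicate block). Within C35D all 4 were highest in C35D-2 and lowest in C35D-3. Egg coat genes lie in families of near copies, and reads among them may be divided uncertainly.

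Of 35 tested genes of the oocyte and egg coat list, 34 were above 0 and none was called, while 29 lay higher and 0 lower at an unadjusted p of 0.05 or less. DESeq2, which called 6.06% of its tested genes higher and 7.16% lower, ran without edgeR's filter and called 35 of the 46 matched genes of the list higher, and with the replicate block edgeR called 21. The median log2 fold change was 7.14, and it was 4.99 without C35D-2. The mean log2 CPM of the list was -0.96, -0.44 and -1.89 in C25D and 3.32, 5.27 and 1.43 in C35D. Germ cell genes, which both sexes use, had smaller differences, with a median of 2.06 over 22 tested genes, 1.05 without C35D-2, and no call. The germ cell helicase ddx4 was at 5.36, 7.07 and 4.83 CPM at 25 dpf against 15.7, 41.6 and 13.2 CPM at 35 dpf, with an adjusted p of 0.0808, and piwil1, which guards germ cells against transposons, at 5.2, 9.22 and 4.19 CPM at 25 dpf against 16.9, 46 and 13.1 CPM at 35 dpf, with an adjusted p of 0.102 (0.0276 with the replicate block). The steroid enzyme cyp11a1.1 was high in 1 library, C35D-2, at 0.406, 0.307 and 0.258 CPM at 25 dpf against 2.17, 26.2 and 0.811 CPM at 35 dpf. Of the somatic genes of the gonad, gsdf was at 18.9, 17 and 12.9 CPM at 25 dpf against 32.2, 17.3 and 33.5 CPM at 35 dpf, with overlapping groups, and dmrt1 was under 1.3 CPM in all 6 libraries.

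Cell cycle genes were highest in the same library. Over the cell cycle list of 97 genes the median was 0.63 with all libraries and 0.28 without C35D-2, and 31 genes were higher at an unadjusted p of 0.05 or less with none called. The DNA replication median was 0.29 with all libraries and -0.13 without C35D-2. The cyclin ccna1, known from germ cells, was at 0.325, 0.154 and 0.193 CPM at 25 dpf against 18.7, 126 and 3.61 CPM at 35 dpf, with an adjusted p of 0.0708 (0.0370 with the replicate block). Whether the oocytes of C35D-2 carry these cell cycle values was not tested.

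Nervous system and eye genes had lower values at 35 dpf, both with and without C35D-1. The older control fish had no steady course. The mean log2 CPM of the phototransduction list was 3.99 to 4.5 in C25D, 3.66 to 4.32 in C45D and -3.02 to -1.8 in C60D. For the synapse list it was 3.3 to 3.61, 2.77 to 3.15 and -0.92 to -0.014 in these groups. With all libraries, 65 of 69 phototransduction genes and 68 of 71 synapse genes were below 0, with medians of -1.78 and -1.59. Without C35D-1 the medians were -1.25 and -1.17, with 16 and 22 genes called lower, and without C35D-2 that of phototransduction was -2.76. The acetylcholine vesicle transporter slc18a3a was at 8.78, 10.8 and 8.05 CPM at 25 dpf against 2.43, 4.09 and 2.21 CPM at 35 dpf, with an adjusted p of 0.0666, and choline acetyltransferase, chata, at 6.58, 7.22 and 8.63 CPM at 25 dpf against 2.69, 3.55 and 1.99 CPM at 35 dpf, with an adjusted p of 0.0678. Both mark cholinergic neurons and did not overlap between ages. The neuronal RNA-binding gene elavl4 was at 123, 159 and 123 CPM at 25 dpf against 17.4, 72.5 and 45.8 CPM at 35 dpf, with an adjusted p of 0.119. The lens crystallin cryaa was at 40.6, 78.8 and 53 CPM at 25 dpf against 0.0868, 36.1 and 22.2 CPM at 35 dpf, and the cone kinase grk7a at 55.1, 80.6 and 53.3 CPM at 25 dpf against 0.174, 17.9 and 7.59 CPM at 35 dpf. Neither passed with all libraries. Without C35D-1 the log2 fold change of grk7a was -2.32, with an adjusted p of 0.0437, and that of cryaa -1, with 0.107.

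The hormone axes of growth had no called gene and no common direction. In the thyroid list 8 of 16 tested genes were above 0, with a median of 0.10 that lay between 0.04 and 0.44 when 1 library was left out. In the pituitary and growth list 12 of 23 were above 0, with a median of 0.01, between -0.04 and 0.18 when 1 library was left out. The iodine-recycling enzyme of the thyroid, iyd, was at 9.18, 7.37 and 9.66 CPM at 25 dpf against 23.3, 19 and 21.8 CPM at 35 dpf, with an adjusted p of 0.0518 (0.0375 with the replicate block). The deiodinase dio1 was at 28.3, 23.2 and 21.7 CPM at 25 dpf against 93.2, 48.5 and 75.9 CPM at 35 dpf, with an adjusted p of 0.0618 (0.0461 with the replicate block), and the thyroid hormone carrier ttr at 38.9, 30.9 and 24.2 CPM at 25 dpf against 89.3, 74.9 and 74.5 CPM at 35 dpf, with an adjusted p of 0.0618 (0.0352 with the replicate block). The 3 genes did not overlap between ages. Of them, ttr is also in the list of secreted liver proteins, whose median was 0.72. In the C60D libraries, where fabp10a was at 0.317 to 1.47 CPM, iyd was at 0 to 0.0792 CPM and dio1 at 5.19 to 16.8 CPM. Whether their values followed the liver, or another organ with few transcripts in C60D, was not tested. The receptors thraa and thrab had log2 fold changes of 0.34 and -0.54, with adjusted p values of 0.300 and 0.162. In the growth axis, igf2a was at 13.2, 14.4 and 13.1 CPM at 25 dpf against 40.01, 22.5 and 48.1 CPM at 35 dpf, with an adjusted p of 0.0678, and the binding protein igfbp2a at 52.7, 39.17 and 43.4 CPM at 25 dpf against 80.02, 79.9 and 91.3 CPM at 35 dpf, with an adjusted p of 0.0677. Leptin b, lepb, had 65 counts over the C25D libraries and 2 over the C35D libraries. The myostatin gene mstnb, a brake on muscle growth, was at 18, 19.1 and 16.9 CPM at 25 dpf against 61.3, 21.3 and 44.8 CPM at 35 dpf, and the groups did not overlap, with an adjusted p of 0.114.

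Genes of the kidney and ionocyte list were lower in level on balance, without a call. Kidney markers did not move together. The marker cdh17 had 2389, 2606 and 2452 unscaled counts at 25 dpf against 4812, 3424 and 2938 at 35 dpf. The marker nphs1 had 5, 8 and 11 against 5, 6 and 10. The ionocyte pump atp1a1a.5 was at 7.4, 7.83 and 9.41 CPM at 25 dpf against 2.17, 2.77 and 2.88 CPM at 35 dpf, with an adjusted p of 0.0536 (0.0494 with the replicate block), and the sodium chloride cotransporter slc12a3 at 11.9, 8.68 and 8.96 CPM at 25 dpf against 3.47, 3.37 and 4.13 CPM at 35 dpf, with an adjusted p of 0.0618. Of 33 tested genes of that list, 11 were lower and 0 higher at an unadjusted p of 0.05 or less, with 13 of the 33 above 0 and a median of -0.20. The median was -0.45 without C25D-1, -0.34 without C35D-1 and -0.33 without C35D-2. Of the glucocorticoid and stress response list 24 of 32 tested genes were below 0, 10 lower and 1 higher by unadjusted p and none called, with a median of -0.53, or -0.79 without C35D-1. The cytokine feedback inhibitor socs3a was at 44.9, 36.4 and 58.4 CPM at 25 dpf against 16.1, 10.5 and 15.3 CPM at 35 dpf, with an adjusted p of 0.0569 (0.0178 with the replicate block), and the immediate-early factors egr3 and fosb had log2 fold changes of -2.35 ± 0.37 and -3.19 ± 0.75, with adjusted p values of 0.0618 and 0.0826. In the gut, the chitinases chia.3 and chia.1 were at 584, 422 and 491 CPM at 25 dpf against 2542, 1147 and 1549 CPM at 35 dpf and at 736, 576 and 539 CPM at 25 dpf against 2299, 1145 and 1315 CPM at 35 dpf, with adjusted p values of 0.0678 and 0.0808.

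The prolyl hydroxylase egln3, which marks the hypoxia-inducible factor for degradation, rose outside these groups, at 9.92, 11.3 and 13.1 CPM at 25 dpf against 59.19, 58.1 and 36.4 CPM at 35 dpf, a log2 fold change of 2.16 ± 0.23 with an adjusted p of 0.0468. So did the sulfotransferase sult3st1, at 11.5, 11.1 and 12.5 CPM at 25 dpf against 26.0, 26.2 and 28.5 CPM at 35 dpf, with an adjusted p of 0.0468, and the fucosyltransferase fut9b.4, at 3.66, 2.38 and 3.35 CPM at 25 dpf against 12.9, 11.8 and 15.5 CPM at 35 dpf, with an adjusted p of 0.0468. The astacin-type protease c6ast1 had 2 counts over the C25D libraries and was at 12.8, 3.97 and 22.1 CPM in C35D. It was named after its values were seen, as were dsg2.1, ehhadh, rnasel3, ccl39.2 and slc10a2. The same holds for zar1, buc, ambn, scpp5, slc4a1a and the actinodins, among others. It also holds for the clock genes cry1b, per3, nr1d2b, hlfb, nfil3-2 and bmal1a. The remaining called genes are shown by symbol in the plot of called genes. Among all 48, 9 carry a clone or locus name only.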

How the data were processed

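RNA described by the study as whole-body was compared between 3 C25D and 3 C35D libraries, with groups and replicate numbers taken from the sample titles. The authors filtered single-end BGISEQ-500 reads, aligned them with Bowtie2 2.2.5 to zebrafish reference genes and deposited an expected count per gene estimated by RSEM 1.2.12, not normalized, beside an expression value per gene. HISAT2 2.0.4, DESeq2 1.4.5 and the build GRCz11 are also named in the submitters' processing notes. The deposited expression values are not named in the table and were taken as FPKM. Divided by CPM and then by the median ratio of each library, they gave a nearly constant value per gene (median coefficient of variation 0.00536 over libraries, 4780 genes). Since each library was scaled by its median, this check cannot tell FPKM from other values scaled by gene length. The deposited values served only for shares within gene families. Of 26225 genes, 24087 were given a symbol from RefSeq tables.

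Expected counts were rounded and tested with edgeR 4.0.16 in R 4.3.3 (TMM factors, edgeR's filter on low counts, quasi-likelihood test, Benjamini-Hochberg adjustment, threshold 0.05). SE is the absolute log2 fold change divided by the square root of F. List levels are mean log2 CPM with a prior count of 0.5. On simulated data with 200 of 20459 genes changed by 2 on the log2 scale, 173 were recovered with 10 false calls. The changed genes were drawn from those with a mean of at least 10 CPM, and both ages had the same dispersion. The observed libraries varied more within C35D, so this recovery does not measure the power of the comparison itself. The SE includes the spread between libraries, and the limit of 3 counts covers counting error only.

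Named genes were the 12 with the smallest p in each direction with a gene symbol, no overlap between the groups and at least 5 CPM in the higher group, up to 4 per hand-written list, cell type markers and members of the globin, muscle, keratin, collagen and hormone families. The members and lists were chosen with earlier results of these data known, and genes outside this rule were named after their values were seen. The check of pairing took deviations from group means: same-numbered libraries correlated at 0.227, 0.232 and 0.148 and all other pairs below 0. Deviations within a group sum to 0, so values above 0 for same-numbered pairs push the other pairs below 0. The other pairs are therefore no separate sign of pairing, and the check cannot settle whether the libraries are paired. The numbers, which the labels give without a stated meaning, were used as a block in an alternative only. The methods call the replicates independent and biological. Alternatives were DESeq2 1.42.0, edgeR with DESeq2's size factors, with library size alone or without the filter, at least 10 counts in all 6 libraries, the block, joint fits of the 12 control or all 21 libraries, an added log2 threshold of 1, unadjusted p values, and leaving out each library.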

Additional observations from a re-analysis of the deposited data

How the results depend on the processing

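The number of called genes depended strongly on the setting. The direction of the 48 genes did not, which their lack of overlap largely fixed in advance. DESeq2 with its default filters gave 1229 higher and 1452 lower genes. Within edgeR, DESeq2's size factors gave 12 higher genes, scaling by library size only gave 14 higher and 6 lower, and a minimum of 10 counts in all 6 libraries gave 208 higher and 151 lower. The replicate block gave 230 higher and 44 lower, a fit of the 12 control libraries 480 and 434, a fit of all 21 libraries 4 and 2, and an unadjusted p of 0.05 or less 2778 and 2592. Leaving out 1 library gave between 0 and 1547 higher and between 0 and 1683 lower genes. No gene was called without any one C25D library (smallest adjusted p 0.0972, 0.227 and 0.22 without replicates 1, 2 and 3), 5 higher and none lower without C35D-3, and the highest numbers came without C35D-2. Why the number moved was not tested. Of the 48 genes, 20 were still called with DESeq2's size factors, 16 with library size only, 41 with the 12 control libraries and 5 with all 21. All 48 kept their sign in each alternative, or 43 of 43 where the minimum of 10 counts left out the rest. Scaling by library size moved the median log2 fold change of all genes from 0.05 to -0.12, and list medians moved down with it. The fast muscle median was then 0.16 and the bile acid median 0.03, the kidney and ionocyte median was -0.41, and the thyroid and growth medians turned negative, at -0.07 and -0.13. The other medians of the text kept their sign. There were 3 libraries an age, and the adjusted p values of the main fit lay between 0.0285 and 0.0478 for all called genes, close to the threshold.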

Other observations

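Genes that were called between 25 and 35 dpf took different courses in the older control fish, which entered no test here. The CPM of the older fish use scaling factors of all 21 libraries and are given as ranges over the libraries of a group. Liver transcripts as a whole were scarce in C60D, where the mean log2 CPM of the liver secreted protein list was -1.18 to 0.19 against 7.12 to 7.36 in C35D and 6.2 to 6.89 in C45D, and fabp10a was at 0.317 to 1.47 CPM. Liver was not alone in this. In C60D the mean log2 CPM was -3.71 to -2.61 for eye lens, -1.76 to -1.13 for heart muscle and -0.80 to 1.46 for intestine. In C45D these lists were at 3.82 to 5.49, 1.92 to 2.36 and 4.45 to 5.67. The fast skeletal muscle list was at 8.44 to 9.97 in C60D and 8.92 to 10 in C45D. How far such differences between libraries shaped the C60D values of liver genes and of the other genes below was not tested. The exporter abcg5 was at 32.7 to 34.4 CPM in C35D, at 4.59 to 7.85 CPM in C45D and at 0 to 0.195 CPM in C60D. The receptor nr0b2a was at 35.9 to 69.5 CPM in C35D, at 1.17 to 2.62 CPM in C45D and at 0.211 to 0.487 CPM in C60D. The enzyme cyp7a1 was at 30.0 to 35.2 CPM in C35D, at 10.9 to 13.5 CPM in C45D and at 9.65 to 35.6 CPM in C60D, so that 1 C60D library was at the 35 dpf level and the others below it. In C60D cyp7a1 thus did not follow fabp10a, abcg5 or nr0b2a, and which tissue made its RNA was not tested. The class I chain b2m was higher with each age, at 66.0 to 152 CPM in C35D, at 169.8 to 254 CPM in C45D and at 289.6 to 533 CPM in C60D, although no test was run on the later steps. The light chain mylpfb was at 0.952 to 5.1 CPM in C45D and at 0.140 to 1.36 CPM in C60D. Other muscle genes that were lower at 35 dpf took different courses. The heavy chain myhz1.1 went on down, to 138 to 998 CPM in C45D and 3.93 to 55.4 CPM in C60D. The levels of ankrd1b, smyhc1 and atp2a1 were higher again in some or all C60D libraries. The called ankrd1b was at 0.459 to 1.75 CPM in C45D and at 0.390 to 34.3 CPM in C60D, where C25D had 16.3 to 31.0 CPM. Of the genes that missed the threshold, smyhc1 was at 152 to 254 CPM in C45D and at 639 to 726 CPM in C60D, where C25D had 633 to 670 CPM. The pump atp2a1 was at 238 to 464 CPM and at 1232 to 1530 CPM, where C25D had 1378 to 1749 CPM. The clock gene per2 was at 29.1 to 31.8 CPM in C35D, at 35.6 to 39.4 CPM in C45D and at 26.3 to 32.2 CPM in C60D. Its relative per1b was at 9.41 to 11.7 CPM, at 13.9 to 17.6 CPM and at 20.7 to 26.0 CPM at the same ages, with all older libraries above those of C35D.

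The oocyte list, at a mean log2 CPM of 1.43 to 5.27 in C35D, was between -1.81 and -0.52 in all 6 libraries of C45D and C60D, where C25D had -1.89 to -0.44. The germ cell list was at 0.09, 1.97 and 1.51 in C45D and at -1.39, 2.73 and 1.74 in C60D. The gene dmrt1 was at 1.53, 11.5 and 6.94 CPM in C45D and at 0.140, 27.2 and 10.6 CPM in C60D. Gonad transcripts thus differed among libraries of an age, and the oocyte values are no uniform course of the ovary. Among the heated fish of 35 dpf, library T35D-1 had 44.9% embryonic and larval globins by FPKM, where C25D had 44.6% to 63.3%, and a mean log2 CPM of -0.12 for the oocyte list. The other T35D libraries had 11.9% and 6.48% of embryonic and larval globins and 8.0 and 8.11 for the oocyte list.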
